A study of Mus musculus with 8 samples.

Results

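The 44 genes described here mostly encode proteins of the junctions that hold intestinal epithelial cells together. Less typical are Mylk3, a kinase known from heart muscle, and Jam2 and Jam3, largely of endothelium and other non-epithelial cells. The genes were taken from a list of tight, adherens and desmosomal junction genes. All 44 were found among the 56941 gene identifiers of the count table, Pals1 under its older symbol Mpp5. They were sorted broadly by role into 5 junction types. These were 9 claudins, 7 other tight junction membrane proteins, 11 tight junction scaffold and polarity proteins, 10 adherens junction proteins and 7 desmosome proteins. Epcam and Cdh17 were placed with the adherens junction as adhesion molecules, which is a loose assignment. Messenger RNA was sequenced in bulk from the jejunum, the middle stretch of the small intestine. The C3H group was inbred C3H/HeJ mice (4 libraries, replicates 1, 3, 4 and 5) and the B6 group was inbred C57BL/6 mice (4 libraries, replicates 2, 3, 4 and 5). Both groups were naive, aged 6 to 8 weeks per the labels, and shared cages for at least 8 weeks before harvest, so that age cannot be the age at harvest for all of them and may be that at the start of housing; all libraries belonged to batch 1. C3H/HeJ is known for a loss-of-function mutation of Tlr4, the lipopolysaccharide receptor, and carries many other differences from C57BL/6. The series title ties food anaphylaxis in mice to uptake of allergen through the gut wall.

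Tight junctions lie at the apical end of the lateral membrane, where claudins on facing cells form strands that either seal the gap between cells or form channels for small ions. Scaffold proteins such as ZO-1 tie these strands to actin and to the polarity complexes. Beneath them, cadherins and nectins hold the adherens junction together and are anchored to actin by catenins and afadin, while desmosomes connect neighbouring cells through keratin filaments. In the small intestine the claudins change along the crypt-villus axis, and the sodium-permeable claudin-15 channel is part of the route that returns sodium to the lumen for glucose uptake.

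Each library held 37205896 to 58251332 counts and detected 25155 to 26483 genes. Nothing in the labels states that every library was made from its own mouse, so a p-value reflects the variation among the 8 libraries, which may be partly technical. Summed enterocyte markers reached 64807 to 103132 CPM (counts scaled to a common library size) in C3H and 76048 to 95477 CPM in B6, as the labelled tissue calls for. Transcripts of 12 pancreatic enzymes summed to 55.4 to 3356 CPM in C3H and 31.3 to 298 CPM in B6, highest in C3H 3 and C3H 5 and, within B6, in B6 2 and B6 3. In bulk tissue, fewer cells of a type and less RNA per cell cannot be told apart.

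Both strains shared 9 of their 10 leading junction transcripts, and the genes that differed between them were spread over claudins, scaffolds and nectins. Of 43 genes tested, 9 passed the threshold (20.9%), 2 higher and 7 lower in C3H, against 21.4% of all 18025 genes tested, 11.3% higher and 10.1% lower (edgeR's quasi-likelihood F test, threshold 0.05 for the adjusted p over all genes tested). The junction genes therefore did not pass more often than the table as a whole. Reads of both strains were aligned to the mouse reference, which derives from C57BL/6; loss of C3H reads at sequence variants would lower C3H values and was not tested. The genes that passed were Cldn1 and Nectin1, higher in C3H, and Magi1, Nectin2, Cldn23, Cldn7, Nectin3, Tjp3 and Mylk3, lower in C3H. In these 9 genes the 4 C3H libraries lay wholly above or wholly below the 4 B6 libraries, and in no other junction gene tested did the strains fail to overlap; 24.4% of all genes tested did so. Cldn1 and Mylk3 alone passed with a change of at least 2-fold, against 7.86% of all genes tested, and both were among the 4 junction genes of lowest level.

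The log2 fold changes, always C3H over B6, leaned below 0, with 32 negative and 11 positive and a median of -0.12, against a median of 0.03 over all genes tested. By type the median was -0.05 for claudins, -0.08 for the other tight junction membrane proteins, -0.12 for scaffold and polarity genes, -0.21 for adherens junction genes and -0.23 for desmosome genes. With 1 library left out at a time, the claudin median ran from -0.08 to 0.03 and that of the other membrane proteins from -0.13 to -0.01. The ranges were -0.22 to -0.05 for scaffold, -0.25 to -0.18 for adherens junction and -0.30 to -0.15 for desmosome genes. Ranges of neighbouring types thus overlapped. Claudins, scaffold and polarity genes and adherens junction genes had 3 genes each past the threshold, of 8, 11 and 10 tested. The scaffold count includes Mylk3, placed there as a kinase that acts on myosin. The other tight junction membrane proteins and the desmosome had 0 of 7 each in edgeR, 0 and 2 at an unadjusted p under 0.05, and 0 each in DESeq2 and limma-voom. Of the 34 genes that did not pass, 30 had a 95% interval that lay within a 1.5-fold change either way. The standard error of the log2 fold change was 0.07 to 0.32, with a median of 0.11, against a median of 0.14 over all genes tested.

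**Figure D1:**
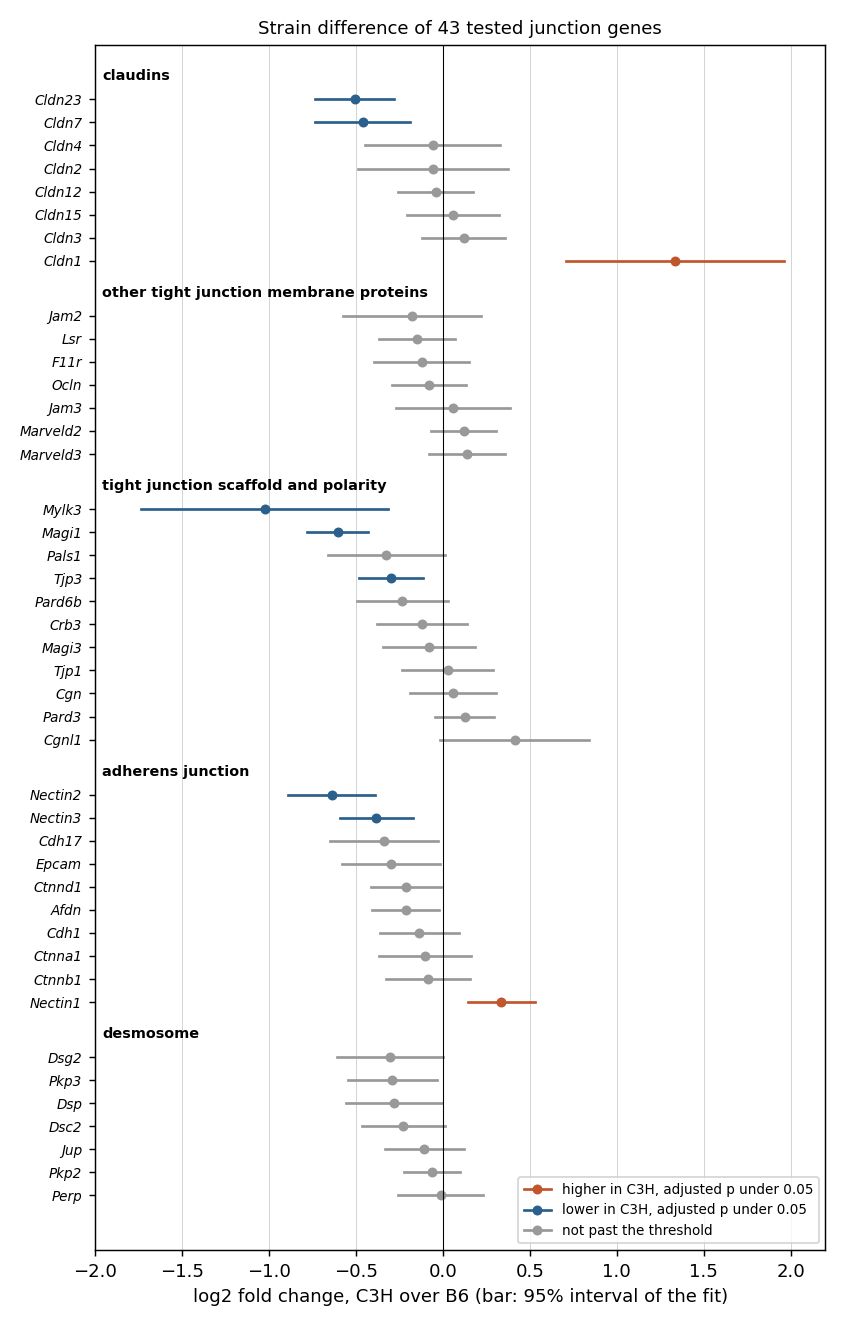
Log2 fold change of the 43 tested junction genes, C3H over B6 (horizontal axis), with the 95% interval of the fit as a bar, grouped by junction type and ordered by size within each type. All 7 desmosome points lie at or below 0, although Perp turns positive with library totals or enterocyte marker scaling, and Cldn1 at 1.34 and Mylk3 at -1.02 lie farthest from it.

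Magi1 and Nectin2 passed under every alternative run for them, and each of the other 7 lost its call under at least 1. The 4 libraries richest in pancreatic transcripts (C3H 3, C3H 5, B6 2 and B6 3) were also left out, a choice made after seeing the data. This left 2 libraries per strain. B6 3 had 109 CPM of these transcripts, little more than the 94.1 CPM of C3H 4, which was kept. In that fit 2 of 43 junction genes passed, Magi1 and Nectin2, beside 9.02% of all genes tested. The part of the smaller number of libraries in the lost calls was not tested. The 7 lost calls kept their direction, with log2 fold changes of -0.58 for Cldn7, -0.50 for Cldn23, -0.39 for Nectin3, -0.28 for Tjp3, -1.39 for Mylk3, 0.30 for Nectin1 and 0.97 for Cldn1. Leaving out 1 library at a time left 7 to 9 junction genes past the threshold.

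Levels are compared between genes as CPM per kilobase of exon, using exon lengths from GENCODE M21. On that scale 7 junction genes averaged above 100 CPM per kb, 22 lay between 10 and 100, 11 between 1 and 10, and 4 below 1. Epcam was at the top with 547 CPM per kb in C3H and 673 in B6, followed by Cdh17 at 365 in C3H and 461 in B6, and Cldn15 at 365 in C3H and 351 in B6. Next were Cldn7, Cldn3, the E-cadherin gene Cdh1 and the beta-catenin gene Ctnnb1. The 5 most abundant genes took 59.9% of the summed level of all junction genes, and 9 of the 10 most abundant were the same in both strains. The 4 genes below 1 CPM per kb were Cgnl1, Mylk3, Cldn1 and Cldn8. Of the genes past the threshold, 1 was among the 7 above 100 CPM per kb (Cldn7), 3 lay between 10 and 100, 3 between 1 and 10, and 2 below 1.

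**Figure D2:**
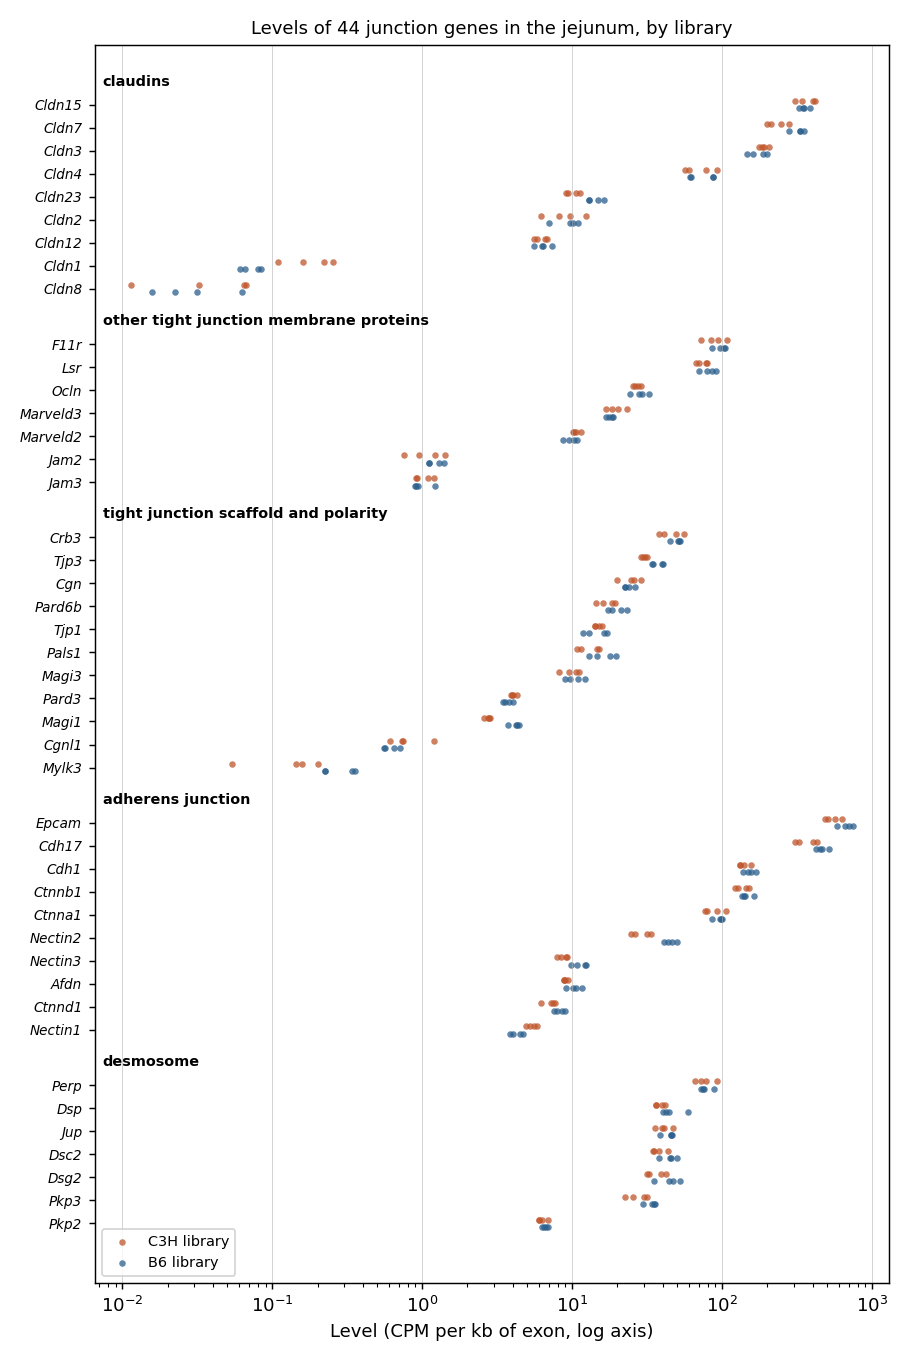
Level of each of the 44 junction genes as CPM per kb of exon (horizontal log axis), with 1 point per library, C3H above B6 within each gene, grouped by junction type. Epcam, Cdh17 and Cldn15 stand at the high end and Cldn8 at the low end, and for most genes the points of the strains overlap.

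Among the claudins, Cldn7 (ENSMUSG00000018569, chromosome 11) and Cldn23 (ENSMUSG00000055976, chromosome 8) were lower in C3H, and Cldn1 (ENSMUSG00000022512, chromosome 16) was higher. Claudin-7 is found at tight junctions and along the lateral membrane, where it binds EpCAM. Cldn7 had 385, 414, 479 and 540 CPM in C3H libraries 1, 3, 4 and 5 and 540, 680, 641 and 640 CPM in B6 libraries 2, 3, 4 and 5. The strains did not overlap, but only just, since C3H 5 lay immediately under B6 2. Means were 454 ± 69.1 CPM in C3H and 625 ± 59.7 CPM in B6 (SD, n = 4 each), a log2 fold change of -0.46 (standard error 0.12, 1.38-fold lower, edgeR adjusted p = 0.0216). The call was lost without C3H 3 (adjusted p = 0.0704) and without B6 3 (adjusted p = 0.0651).

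Cldn23, a claudin of differentiated intestinal epithelium, had 17.2, 16.8, 19.4 and 20.7 CPM in C3H and 23.8, 30.2, 27.6 and 23.8 CPM in B6. Every C3H library lay below every B6 library. Its log2 fold change was -0.51 (standard error 0.10, 1.42-fold lower, edgeR adjusted p = 0.0044). With libraries scaled to the enterocyte markers the log2 fold change was -0.47 and the adjusted p 0.0679.

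Cldn1, a sealing claudin best known from the barrier of the skin, was near the lower limit of detection. It had 27, 64, 42 and 29 counts in the C3H libraries and 12, 12, 22 and 21 counts in the B6 libraries, which is 0.53, 1.23, 1.07 and 0.779 CPM in C3H and 0.319, 0.294, 0.407 and 0.39 CPM in B6. C3H 3 was highest, and C3H 1, the lowest of its strain, still lay above all B6 libraries. The log2 fold change was 1.34 (standard error 0.28, 2.52-fold higher, edgeR adjusted p = 0.00599), and without the 4 pancreas-rich libraries it was 0.97 (adjusted p = 0.203).

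The other claudins did not pass the threshold. Cldn15, the channel-forming claudin of the small intestine, had 650, 720, 858 and 877 CPM in C3H and 687, 741, 735 and 819 CPM in B6. C3H 1 lay below the B6 libraries and C3H 4 and C3H 5 above them, so the B6 range fell inside that of C3H. Its log2 fold change was 0.06 (95% interval -0.21 to 0.32, edgeR adjusted p = 0.79). Cldn3, a sealing claudin, had 241, 220, 231 and 258 CPM in C3H and 185, 251, 202 and 236 CPM in B6, with overlapping strains. Its log2 fold change was 0.12 (95% interval -0.12 to 0.36). Cldn4, Cldn2 and Cldn12 had log2 fold changes of -0.06, -0.05 and -0.04, and the sign of all 3 turned under at least 1 alternative. Cldn2, the cation and water channel of crypts, made up 0.609 to 1.56% of the claudin level in C3H and 0.732 to 1.21% in B6, and its 95% interval ran from -0.49 to 0.38. Cldn8, a claudin of the distal colon, had 19 counts over the C3H libraries and 15 over the B6 libraries and was too low to be tested.

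The make-up of the claudin pool was also compared, as each gene's share of the summed claudin level per kilobase within a library. Cldn7 took 26.3 ± 0.889% of the pool in C3H, with a range of 25.2 to 27.4%, and 33.8 ± 0.779% in B6, with a range of 33.1 to 34.6% (SD, n = 4 each). The share of Cldn7 was thus tighter within each strain than its CPM, and the gap between the strains was several times the spread. Cldn15 took 39.1 to 43.1% in C3H and 34.2 to 38.9% in B6, again without overlap. The shares of Cldn3 were 19.6 to 24.4% in C3H and 16.8 to 19.6% in B6, and these touched. Shares within a pool must sum to the whole, so a lower share of Cldn7 raises the others; no separate test was run on them.

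**Figure D3:**
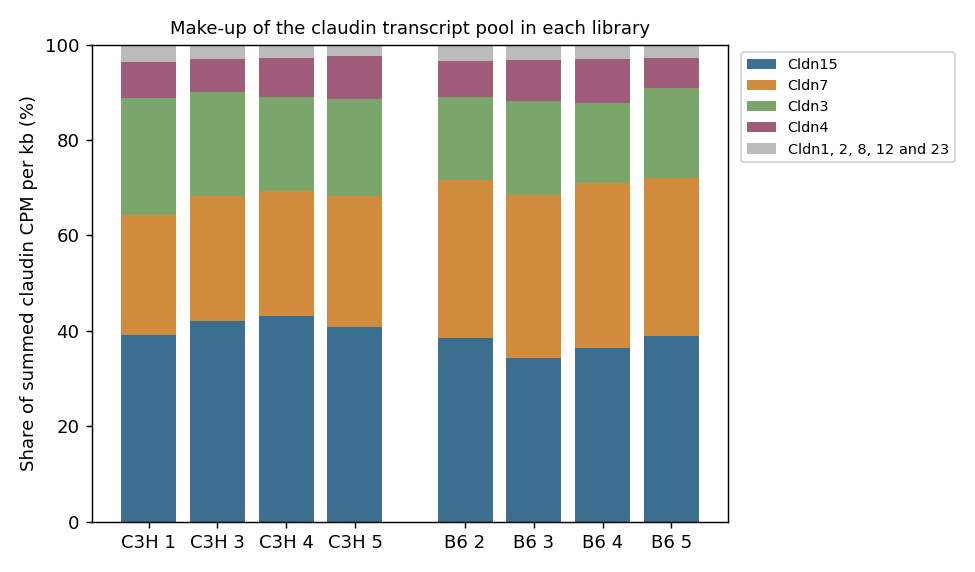
Share of each claudin in the summed claudin CPM per kb (vertical axis, %), 1 stacked bar per library, C3H libraries on the left and B6 libraries on the right. The Cldn7 segment averages 26.3% in C3H and 33.8% in B6, and the rare claudins together form the thin grey top.

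None of the other tight junction membrane proteins passed the threshold. F11r, which encodes the junctional adhesion molecule JAM-A, had 193, 223, 248 and 288 CPM in C3H and 228, 276, 275 and 256 CPM in B6. Lsr, which recruits tricellulin to the corners where 3 cells meet, had 145, 152, 169 and 172 CPM in C3H and 152, 197, 173 and 185 CPM in B6. Ocln, the occludin gene, had 107, 110, 121 and 115 CPM in C3H and 122, 117, 137 and 102 CPM in B6. In all 3 genes the strains overlapped, and the log2 fold changes were -0.12 for F11r, -0.15 for Lsr and -0.08 for Ocln (edgeR adjusted p 0.545, 0.341 and 0.623). Marveld2, which encodes tricellulin, and its relative Marveld3 had positive log2 fold changes of 0.12 and 0.14, with 95% intervals of -0.07 to 0.31 and -0.08 to 0.36. Jam2 and Jam3, adhesion molecules largely of endothelium and other non-epithelial cells, were near 1 CPM per kb, with log2 fold changes of -0.17 and 0.06. Lsr shares 43.6% and Jam3 36.2% of their exon bases with an antisense gene model; those models had 175 and 142 counts over all libraries, against 61390 for Lsr and 1197 for Jam3.

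Of the scaffold and polarity genes, Magi1, Tjp3 and Mylk3 were lower in C3H. Magi1 (ENSMUSG00000045095, chromosome 6) encodes a multi-PDZ scaffold of epithelial junctions and gave the smallest adjusted p of all junction genes. Its values were 27.3, 29.9, 29.4 and 29.1 CPM in C3H and 45.4, 44.9, 46.6 and 39.2 CPM in B6. Each strain formed a tight group, with B6 5 the lowest of B6 and still well above every C3H library. This gave a log2 fold change of -0.61 (95% interval -0.78 to -0.43, 1.52-fold lower, edgeR adjusted p = 0.000222). Its paralog Magi3 did not pass, at -0.08 (95% interval -0.35 to 0.19); whether the paralogs differ in their strain effect was not tested.

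Tjp3 (ENSMUSG00000034917, chromosome 10), which encodes ZO-3, had 113, 110, 117 and 107 CPM in C3H and 126, 146, 129 and 149 CPM in B6. The C3H values were close together and all lay below B6. Tjp3 had a log2 fold change of -0.30 (standard error 0.08, 1.23-fold lower, edgeR adjusted p = 0.0246). The adjusted p was 0.0512 without C3H 5, 0.0853 without B6 3 and 0.0687 without B6 5, and 0.134 with library totals as scaling. Tjp1, which encodes ZO-1, had a log2 fold change of 0.03 (95% interval -0.23 to 0.29).

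Mylk3 (ENSMUSG00000031698, chromosome 8), a myosin light chain kinase known from heart muscle, was placed with the scaffold genes as a kinase that acts on myosin. It had 44, 35, 9 and 23 counts in C3H and 36, 39, 83 and 78 counts in B6, or 0.864, 0.672, 0.23 and 0.618 CPM in C3H and 0.956, 0.956, 1.53 and 1.45 CPM in B6. C3H 4 was lowest, and C3H 1 came close to B6 2 and B6 3. The log2 fold change was -1.02 (standard error 0.32, 2.03-fold lower, edgeR adjusted p = 0.0435). The call was lost without any 1 of C3H 3 (adjusted p = 0.0702), C3H 4 (0.058), C3H 5 (0.0748), B6 4 (0.106) or B6 5 (0.104), and with library totals as scaling (0.086). Mylk, which encodes the kinase of smooth muscle and epithelium, averaged 396 CPM in C3H and 417 CPM in B6 and did not pass (log2 fold change -0.08, edgeR adjusted p = 0.632). The smooth muscle and epithelial parts of the Mylk level cannot be told apart in bulk tissue.

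Crb3 and Cgn were the most abundant of this type beside Tjp3. Crb3, the Crumbs protein that marks the apical membrane, had 59.5, 64.1, 76.7 and 86.8 CPM in C3H and 70.6, 79.5, 81.5 and 80.2 CPM in B6. Cgn, the cingulin gene, had 120, 156, 148 and 174 CPM in C3H and 136, 136, 158 and 144 CPM in B6. Both overlapped between strains, with log2 fold changes of -0.12 for Crb3 and 0.06 for Cgn. The polarity genes Pard6b, Pals1 and Pard3 had log2 fold changes of -0.23, -0.32 and 0.13, and Cgnl1, which encodes paracingulin, had 0.41 (95% interval -0.02 to 0.84); none of these passed.

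Within the adherens junction the 3 nectins differed in direction. Nectins are immunoglobulin-like adhesion molecules that bind each other across cells and are anchored by afadin. Nectin2 (ENSMUSG00000062300, chromosome 7) had 85.5, 92.1, 111 and 117 CPM in C3H and 144, 175, 152 and 161 CPM in B6. All C3H libraries lay below all B6 libraries, with C3H 5 the nearest. Its log2 fold change was -0.64 (95% interval -0.89 to -0.39, 1.56-fold lower, edgeR adjusted p = 0.00189). Nectin3 (ENSMUSG00000022656, chromosome 16) had 101, 107, 116 and 117 CPM in C3H and 155, 136, 157 and 126 CPM in B6. B6 5 came nearest to C3H without reaching it, and the log2 fold change was -0.38 (standard error 0.09, 1.30-fold lower, edgeR adjusted p = 0.0141). The Nectin3 call was lost with enterocyte marker scaling (log2 fold change -0.34, adjusted p = 0.13).

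Nectin1 (ENSMUSG00000032012, chromosome 9) went the other way, with 29.7, 27.9, 31.6 and 32.9 CPM in C3H and 21.8, 25.3, 26.7 and 22.8 CPM in B6. C3H 3 and B6 4 were neighbours, but the strains did not overlap. Its log2 fold change was 0.34 (standard error 0.09, 1.26-fold higher, edgeR adjusted p = 0.0184). The adjusted p was 0.052 without C3H 4, 0.0533 without C3H 5, 0.0619 without B6 2 and 0.0501 without B6 5, and 0.0511 with no filter on low counts. As a share of the summed nectin level per kilobase, Nectin1 made up 12.6 ± 0.91% in C3H and 7.04 ± 0.519% in B6, and Nectin2 67.2 ± 1.86% in C3H and 74.3 ± 2.83% in B6 (SD, n = 4 each). Neither share overlapped between strains. Nectin3 took 18.9 to 21.1% in C3H and 16.4 to 21.3% in B6, which overlapped.

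**Figure D4:**
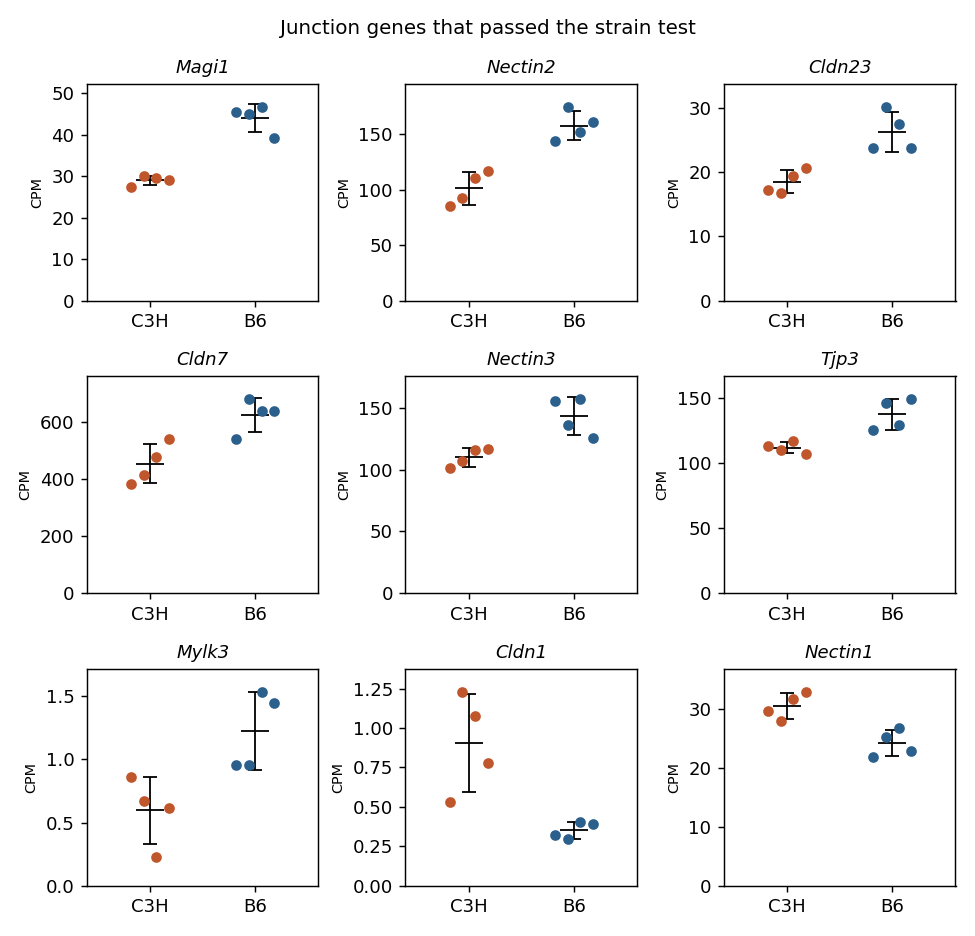
CPM of the 9 junction genes that passed the threshold, 1 panel per gene with its own vertical axis from 0, with 1 point per library and the mean and SD as bars, C3H left and B6 right. Points of the strains do not overlap in any panel, and the gap that is narrowest relative to the level is in Cldn7, with 540 CPM in both C3H 5 and B6 2.

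The most abundant genes listed under the adherens junction, Epcam and Cdh17, leaned lower in C3H without passing. Epcam, which encodes a homophilic adhesion molecule that stabilizes claudin-7, had 1113, 1060, 1243 and 1388 CPM in C3H and 1286, 1528, 1637 and 1455 CPM in B6. Cdh17, the intestinal cadherin LI-cadherin, had 1361, 1461, 1792 and 1913 CPM in C3H and 2072, 2001, 2293 and 1883 CPM in B6. In both genes 3 C3H libraries lay below all B6 libraries and C3H 5 reached into the B6 range. The log2 fold change was -0.30 for Epcam (95% interval -0.58 to -0.02, edgeR adjusted p = 0.126) and -0.34 for Cdh17 (95% interval -0.65 to -0.03, edgeR adjusted p = 0.121). Both passed in DESeq2 (adjusted p = 0.0346 for Epcam and 0.0267 for Cdh17) and with library totals as scaling. Cdh17 also passed with enterocyte marker scaling (log2 fold change -0.31, edgeR adjusted p = 0.0312).

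Cdh1, the E-cadherin gene, had 597, 602, 640 and 706 CPM in C3H and 679, 713, 773 and 629 CPM in B6, with overlap. Its log2 fold change was -0.13 (95% interval -0.36 to 0.09). The catenins Ctnna1, Ctnnb1 and Ctnnd1 and the afadin gene Afdn had log2 fold changes of -0.10, -0.09, -0.21 and -0.21. Afdn passed without B6 5 (adjusted p = 0.0494). Ctnnd1 shares 61.2% of its exon bases with the same-strand model Gm28635, which had 0 counts, so its count is uncertain.

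All 7 desmosome genes had a negative log2 fold change, except that Perp turned positive with library totals or enterocyte marker scaling and without any 1 of C3H 1, C3H 3 or B6 4, and none passed. Perp, a tetraspan membrane protein needed for desmosome assembly, was the most abundant of them per kilobase, with 142, 129, 151 and 179 CPM in C3H and 141, 149, 172 and 144 CPM in B6. Dsp, which encodes desmoplakin, the linker to keratin, had 380, 351, 347 and 404 CPM in C3H and 410, 429, 571 and 389 CPM in B6. Jup, the plakoglobin gene, had 230, 263, 254 and 303 CPM in C3H and 247, 292, 294 and 295 CPM in B6. The strains overlapped in all 3, with B6 4 the highest in Dsp and B6 2 the lowest B6 library in Jup. Log2 fold changes were -0.01 for Perp, -0.28 for Dsp and -0.11 for Jup (edgeR adjusted p 0.953, 0.147 and 0.532). The cadherins Dsg2 and Dsc2, the desmosomal pair of simple epithelia, had -0.30 and -0.23, and the plakophilins Pkp3 and Pkp2 had -0.29 and -0.06. Pkp3 passed without C3H 5 (adjusted p = 0.0466).

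Many junction genes, though not all, shared an order of the C3H libraries. C3H 1 was the lowest C3H library in 26 of 43 junction genes (60.5%), against 30.3% of all genes tested, and C3H 5 was the highest in 28 (65.1%), against 31.2%. Both held in 19 (44.2%), against 17.6%. In Cldn2, Cldn12, Jam2, Jam3, Cgnl1 and Tjp3, C3H 5 was instead the lowest C3H library. Cldn2 had 40.7, 26.9, 32.2 and 20.5 CPM in C3H libraries 1, 3, 4 and 5. These orders are of TMM-scaled CPM. The TMM factor was highest in C3H 1 (1.13), which lowers its CPM, and lowest in C3H 5 (0.915), which raises its CPM. The order on library totals was not tested. Summed enterocyte markers, on the same scale, rose from C3H 1 to C3H 5, at 64807, 74391, 89961 and 103132 CPM in C3H libraries 1, 3, 4 and 5. In B6 libraries 2, 3, 4 and 5 these sums were 76048, 83116, 95477 and 79738 CPM. Crypt stem cell markers were instead highest in C3H 1 and lowest in C3H 5, at 666, 496, 455 and 364 CPM in C3H and 544, 491, 417 and 476 CPM in B6. In edgeR 0 of 12 enterocyte markers passed between strains, with 0 at an unadjusted p under 0.05, 2 in DESeq2 and 0 in limma-voom. Of 8 crypt markers 1 passed (Axin2, lower in C3H), and no marker was at 0 in all libraries. With libraries scaled to the enterocyte markers, 5 junction genes passed, beside 12.6% of all genes tested. Of these 5, 4 had passed before and the other was Cdh17, lower in C3H. The 5 genes that lost their calls kept log2 fold changes of -0.47 (Cldn23), -0.34 (Nectin3), -0.24 (Tjp3), -0.92 (Mylk3) and 0.39 (Nectin1) under this scaling. The part of these markers in the strain differences was not tested.

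**Figure D5:**
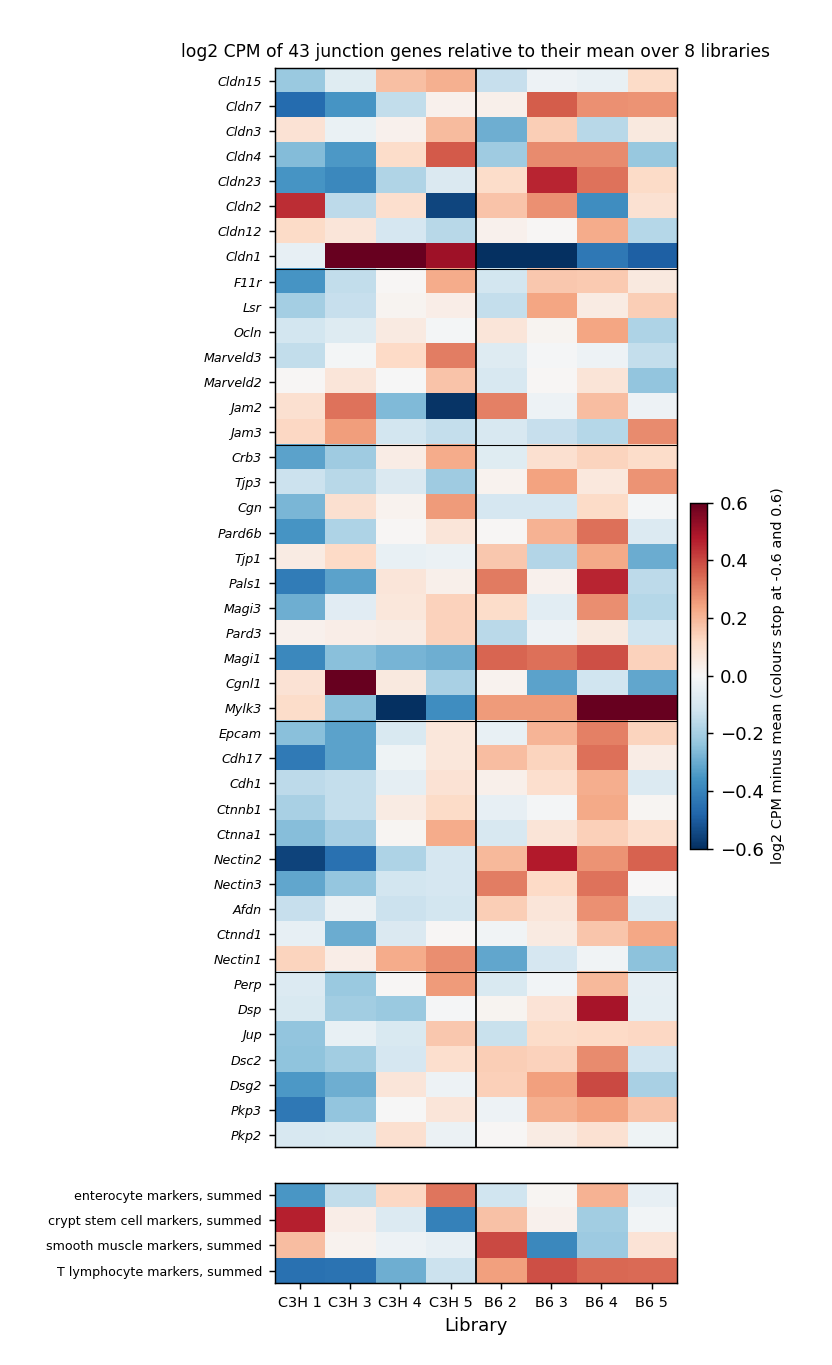
Difference of log2 CPM from the gene's mean over 8 libraries (colour scale, clipped at -0.6 and 0.6) for the 43 tested junction genes and 4 summed marker lists, with C3H libraries left and B6 libraries right of the vertical line. C3H 1 is mostly blue and C3H 5 mostly pale or red, and the enterocyte row follows the same pattern within C3H.

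Markers of other cell types were read against the same background, 11.3% of all genes tested higher and 10.1% lower. All 8 markers of intraepithelial and T lymphocytes were lower in C3H, with a summed level of 127 to 158 CPM in C3H and 205 to 226 CPM in B6. Tuft cell markers were lower in 6 of 7 tested, at 34.7 to 37.9 CPM in C3H and 63.6 to 78.6 CPM in B6. Enteroendocrine markers were higher in 6 of 8, at 478 to 700.0 CPM in C3H and 264 to 372 CPM in B6. Endothelial markers were higher in 3 of 10 (Kdr, Tie1 and Tek), at 101 to 137 CPM in C3H and 85.8 to 93.5 CPM in B6. All 10 endothelial markers had a positive log2 fold change (median 0.23). Goblet markers were lower in 2 of 8 in edgeR and 4 passed in DESeq2, and all 8 had a negative log2 fold change (median -0.30). Their sums were 8374 to 11317 CPM in C3H and 10500 to 12815 CPM in B6, with overlap. Paneth markers were lower in 2 of 8, but 5 of the 8 had a positive log2 fold change (median 0.13), and their sums overlapped at 3466 to 5193 CPM in C3H and 3998 to 5788 CPM in B6. Pancreatic markers were higher in 2 of 12, but all 12 had a positive log2 fold change (median 3.81), with the wide spread among C3H libraries given above. Macrophage and dendritic cell markers were higher in 2 of 8 (25.0%), and 5 of the 8 had a positive log2 fold change. Their sums overlapped, at 346 to 401 CPM in C3H and 302 to 352 CPM in B6. Enteric neuron and glia markers were lower in 1 of 8 (12.5%), which is near the background. Smooth muscle and fibroblast markers had 0 of 8 each past the threshold in edgeR, DESeq2 and limma-voom and 0 at an unadjusted p under 0.05. The log2 fold change was positive in all 8 fibroblast markers (median 0.18) and in 4 of 8 smooth muscle markers. Proliferation markers had 0 of 8 in edgeR, 1 at an unadjusted p under 0.05 and 1 each in DESeq2 and limma-voom. The part of these lists in the junction results was not tested.

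Of 116 further genes related to cell junctions, 90 were tested and 17 passed (18.9%), 7 higher and 10 lower in C3H, with a median log2 fold change of -0.03. That share is no higher than the 21.4% of all genes tested. Other tight junction genes gave the largest changes. Amotl1, an angiomotin-family scaffold, was 3.11-fold higher in C3H (27.2 ± 3.35 CPM in C3H and 8.75 ± 1.88 CPM in B6, SD, n = 4 each, edgeR adjusted p = 1.7e-05). Its relative Amot was 1.37-fold higher (edgeR adjusted p = 0.0422). Ildr1, an angulin of tricellular contacts that is also found in enteroendocrine cells, was 3.01-fold lower (0.794 ± 0.12 CPM in C3H and 2.39 ± 0.621 CPM in B6, edgeR adjusted p = 0.000319). Arhgef2, a guanine nucleotide exchange factor held at tight junctions by cingulin, was 1.47-fold lower, at 77.7 ± 9.89 CPM in C3H and 114 ± 7.47 CPM in B6 (edgeR adjusted p = 0.00263). These 4 were all that passed among 18 tested.

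Among other polarity genes 1 of 13 tested passed, Lin7c at -0.37, and among other adherens junction genes 3 of 21 passed, Ssx2ip at -0.36, Ajuba at -0.50 and Vezt at -0.27, all log2 fold changes. Of 12 tested genes of junctional actomyosin, the actin-branching regulator Cttn was lower, at 179 ± 22.1 CPM in C3H and 262 ± 22.7 CPM in B6 (log2 fold change -0.55, edgeR adjusted p = 0.00347), and so was the light chain gene Myl12a (-0.35). Of 4 tested desmosome genes more typical of stratified epithelium, Pkp1 and Ppl were higher in C3H, at log2 fold changes of 0.69 and 0.32, and Dsg4 was lower at -0.75. Of 7 tested Epcam partners and membrane proteases, the tetraspanin gene Cd9 was higher at 0.37. Cldn5, the endothelial claudin, averaged 2.03 CPM in C3H and 1.67 CPM in B6, and Cldn10 0.283 CPM in C3H and 0.208 CPM in B6; these were the other claudins with enough counts for a test, and neither passed in edgeR, DESeq2 or limma-voom or had an unadjusted p under 0.05.

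Promoter sequences from RefSeq (build GRCm38.p6) were listed for 29 of the 44 genes, some with 2 listed starts. The 250 bases before each listed start were searched on both strands for 6 short motifs. A gene was counted for a motif if any of its listed starts had it. Of the genes that passed, 3 had a single listed start. The sequences of Nectin2, the adherens junction gene with the largest fall, and Cldn1, the junction gene with the largest fold change, are shown. The other, Nectin3, had none of the 6 motifs and is not shown. Capitals mark the E-box CAGGTG, the site type to which the Snail and ZEB repressors of epithelial genes bind. The Nectin2 stretch lies at chr7:19749574-19749823 and that of Cldn1 at chr16:26371840-26372089, both on the minus strand and written 5′ to 3′ along the gene.
Nectin2: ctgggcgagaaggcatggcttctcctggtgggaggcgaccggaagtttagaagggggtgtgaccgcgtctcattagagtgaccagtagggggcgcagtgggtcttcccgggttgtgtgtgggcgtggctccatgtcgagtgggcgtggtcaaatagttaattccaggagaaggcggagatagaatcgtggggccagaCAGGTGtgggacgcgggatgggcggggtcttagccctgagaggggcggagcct
Cldn1: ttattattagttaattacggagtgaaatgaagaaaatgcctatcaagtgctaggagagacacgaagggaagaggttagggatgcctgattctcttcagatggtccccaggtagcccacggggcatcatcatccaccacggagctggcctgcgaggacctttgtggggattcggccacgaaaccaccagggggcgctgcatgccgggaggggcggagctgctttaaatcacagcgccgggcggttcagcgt
The E-box was present in 12 of 29 junction genes (41.4%), against 19.4% of 27025 genes with a listed promoter. The 12 were Epcam, Cldn4, Cldn7, F11r, Lsr, Ocln, Crb3, Pard3, Pard6b, Tjp3, Magi1 and Nectin2. These shares were not matched for the number of listed starts per gene or for expression. The E-box stood in promoters of genes that passed and of genes that did not. The CDX letters TTTATG were in 13.8% of these junction genes and 12.4% of all, the GATA letters TGATAA in 6.9% and 9.21%, and the TATA letters TATAAA in 17.2% and 14.3%. The CDX and GATA letters can share bases, and the TATA letters can share none with either. The Grainyhead-like core ACCGGTT and the HNF4 letters CAAAGTC were in none of the 29 genes, against 0.951% and 4.33% of all. A match is a description of letters and not a bound site.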

How the data were processed

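The authors deposited a table of raw counts per gene for 8 libraries; per the submitters' processing notes, STAR 2.7.9a and HTSeq 2.0.2 were used with GRCm39, the C57BL/6-derived reference, for both strains. Annotation release and strand setting: not given in the sources used here. Per the labels, a stranded mRNA kit was used on 200 ng of RNA (integrity number over 7). Symbols, chromosomes and exon lengths came from GENCODE M21 (GRCm38), which named 52000 of 56941 identifiers; gene coordinates are therefore not given.

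Samples were grouped by their strain labels. Counts were fitted in edgeR 4.0.16 (R 4.3.3) with TMM scaling (factors 0.915 to 1.13), filterByExpr at a minimum count of 10, the quasi-likelihood F test and Benjamini-Hochberg adjustment over 18025 genes. Library sizes for CPM were TMM-scaled. The standard error is the log2 fold change over the square root of F. The tests were also run on simulated counts with known changes. Those counts were drawn independently for each library, without the shared order of the C3H libraries. They therefore cannot show how well the tests do on these data. No pair of libraries agreed within counting noise (chi-square over degrees of freedom 23.3 to 89.6).

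The genes given with a value in every library were all that passed and the 3 most abundant per kilobase of each type. Of each further list up to 4 genes with the smallest adjusted p were named, or the 2 with most counts where none passed; Mylk and the uncalled junction genes beyond these were named after their values were seen. Some results of the further lists are not reported here. The members and lists were chosen with earlier results of these data known. Alternatives were DESeq2 1.42.0 and its size factors, library totals, limma-voom 3.58.1, other filters, a threshold of 0.01, a replicate block, and each library left out. Leaving out the 4 pancreas-rich libraries and scaling to enterocyte markers were chosen after seeing the data.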

Additional observations from a re-analysis of the deposited data

Results flagged for a closer look

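Of 86 groups of 4 libraries, 2 held a library far from the other 3; chance gives about 1 in 20 groups. Jam3 reached 3.9 CPM in B6 5, against 2.85 to 3.0 CPM in the other B6 libraries. Jup had 247 CPM in B6 2, against 292 to 295 CPM in the other B6 libraries. Neither gene passed the strain test.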

How the results depend on the processing

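Across 18 alternatives no gene past the threshold changed direction, and Magi1 and Nectin2 passed in all run for them. Of 772 gene-level comparisons with the reported values, 698 kept direction and side of the threshold, 34 lost the threshold, 7 gained it and 33 changed sign. Cldn1 could not be tested at a mean of at least 100 counts, nor could Mylk3. The causes of the changes below were not tested, and some settings use fewer libraries or a stricter threshold.

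Without the 4 pancreas-rich libraries, 1675 of all genes and 2 junction genes passed, 0 higher and 2 lower, with 1 adherens, 0 claudin and 1 scaffold gene; the scaffold median was -0.26. With enterocyte marker scaling, 2265 of all genes and 5 junction genes passed, 1 higher and 4 lower, with 1 scaffold gene. At an adjusted p under 0.01 these were 2326 of all genes and 4 junction genes, 1 higher and 3 lower, with 1 adherens and 1 scaffold gene. With library totals 5 adherens and 1 scaffold genes passed, and DESeq2 gave 5 adherens genes. With no filter, or a mean of at least 100 counts, 1 gene was higher. Leaving out 1 library at a time gave 0 to 1 desmosome, 1 to 3 scaffold and 2 to 3 adherens or claudin genes, 1 to 2 higher and 5 to 7 lower, and a junction median of -0.19 to -0.09; the claudin median ran from -0.08 to 0.03. The desmosome gene was Pkp3 (without C3H 5), and the scaffold count was 1 without C3H 5 and without B6 5.

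Replicate numbers 3, 4 and 5 occur in both strains but did not pair the libraries (correlations of deviations 0.0058, 0.18 and -0.052; only number 4 matched itself best). With a replicate block on those libraries 6 junction genes passed, 1 higher, with 1 adherens gene; the same libraries without the block gave 7, 1 higher, with 1 adherens gene. Nectin1 (adjusted p = 0.113 and 0.066) and Nectin3 (0.086 and 0.0596) lost their calls with and without the block, and Tjp3 with the block (0.0589, against 0.0266 without it), at a log2 fold change of -0.36 in both.

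Sign changes, all in genes that did not pass, as log2 fold changes: with library totals, Cldn12 0.0333, Cldn2 0.0234 and Perp 0.0407; with enterocyte scaling, Cldn12 0.0414, Cldn2 0.038 and Perp 0.0269; without the pancreas-rich libraries, Cgn -0.183, Cldn15 -0.0547, Cldn2 0.397 and Jam3 -0.0686. Tjp1 was -0.0024 with no filter. With the replicate block Jam3 was -0.0077 and Magi3 0.0141, and without it on the same libraries -0.0084 and 0.0034. Leaving out single libraries gave Cgn -0.0233 to 0.139, Cldn12 -0.104 to 0.0276, Cldn15 -0.0071 to 0.122, Cldn2 -0.245 to 0.0892, Cldn4 -0.208 to 0.0256, Jam3 -0.0383 to 0.176, Magi3 -0.148 to 0.0039, Perp -0.111 to 0.0511 and Tjp1 -0.06 to 0.114.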

Other observations

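Gap junction and keratin genes lie outside the 5 junction types. Gja4, a connexin of arterial endothelium, was higher in C3H, at 1.77 ± 0.244 CPM in C3H and 1.07 ± 0.0913 CPM in B6 (SD, n = 4 each, log2 fold change 0.73, edgeR adjusted p = 0.0067). Of 7 keratin filament genes tested, Krt23 was lower in C3H (log2 fold change -0.51, edgeR adjusted p = 0.0331) while its strains overlapped.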
